A study of Cricetulus griseus with 20 samples.

Results

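The genes Egln1, Bhlhe40, Ankrd37, Ddit4 and Ccng2, which answer to low oxygen in many mammalian cells, were followed through the differentiation of Chinese hamster fat cells in hypoxia and normoxia. They were chosen from the measured values, because hypoxia had raised them in these same libraries, and they are 5 of the 10318 mRNAs in the deposited table. The cells were primary preadipocytes from the inguinal white adipose tissue (iWAT) of female hamsters 6 weeks old, and the tissue of all animals was pooled before culture. All 10 groups were grown to confluence, and those taken after D0 were induced with a cocktail of dexamethasone, insulin and IBMX, which was later replaced by insulin alone for the D3, D7 and D11 groups. The normoxia groups at D0, D1, D3, D7 and D11 stayed in 21% O2, and each hypoxia group spent only the last 24 h before its timepoint in 1% O2, so a hypoxic D11 culture had differentiated in normoxia before. Each group had 2 libraries, which makes 20 in all, and n = 2 holds for every mean below.

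Hypoxia-inducible factors (HIF) are transcription factors whose alpha subunits are hydroxylated and destroyed while oxygen is present and escape destruction when it is scarce. Their targets supply glucose and blood vessels, and they also include genes that limit the response itself and slow growth. Egln1 encodes PHD2, the prolyl hydroxylase that marks HIF alpha for destruction and so closes a negative feedback. Bhlhe40 encodes a basic helix-loop-helix repressor that binds E-boxes, takes part in the circadian clock and represses adipogenic transcription in mouse preadipocyte lines. Ankrd37, a HIF target in human and mouse cells, encodes a small ankyrin repeat protein whose function is little known. Ddit4 encodes REDD1, which inhibits the growth kinase complex mTORC1 through the TSC complex. Ccng2 encodes cyclin G2, an unconventional cyclin that slows the cell cycle.

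All 5 mRNAs stood higher after 24 h of hypoxia than in normoxia at D0, D1, D3 and D7. They climbed in normoxia as the cells differentiated, so that the 2 oxygen levels lay closer together at D11. Ankrd37 had the widest range, from 0.592 ± 0.0556 TPM (SD) in normoxia at D0 to 34.1 ± 0.785 TPM in hypoxia at D11. TPM is the deposited transcript abundance, corrected for transcript length and scaled to the same total in each library. Ddit4 and Ccng2 were the most abundant of the 5, with highest group means of 159 ± 2.18 TPM and 139 ± 9.94 TPM. In normoxia the 5 genes rose from D0 to D11 by log2 fold changes of 1.85 to 4.09, whereas the median of all mRNAs changed by -0.38. At D11 the oxygen effects on the 5 genes lay between -0.73 and 0.16 relative to the median of all mRNAs, and Ccng2 was lower in hypoxia in both libraries.

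The deposited tables hold TPM and no reads per gene, so the depth behind a single value is unknown and no counting interval was computed. The listed mRNAs held between 27.9% and 45.8% of all TPM of a library. Between hypoxia and normoxia, all mRNAs had a median log2 fold change of -0.05, -0.09, -0.07 and -0.19 at D0, D1, D3 and D7, and 0.51 at D11. A relative value below is a log2 fold change minus that median. The D11 libraries are taken as labelled. From the TPM values alone, swapped D11 labels cannot be told apart from effects that turn between D7 and D11. Of 7 named adipocyte markers, Fabp4, Pparg and Cd36 had mean levels of 161, 95.2 and 21.3 TPM over the 20 libraries, and Pnpla2, Lipe, Lpl and Dgat2 were low, at 5.67, 4.47, 3.50 and 2.06 TPM. The preadipocyte gene Pdgfra had 11.97 TPM. No symbol was known for any of 9 macrophage markers, and the one named endothelial marker, Pecam1, lay between 0.565 and 9.03 TPM. In bulk RNA, fewer cells of a type and less RNA per cell cannot be told apart.

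Egln1, the oxygen sensor of the feedback loop, had 20.3 and 22.2 TPM in the 2 normoxic libraries at D0, 17.1 and 17.4 at D1, 23.2 and 32.0 at D3, 61.0 and 70.5 at D7, and 105 and 111 at D11. In hypoxia it had 68.3 and 67.8 TPM at D0, 72.7 and 87.4 at D1, 105 and 106 at D3, 95.2 and 120 at D7, and 144 and 126 at D11. Hypoxic libraries lay above normoxic libraries at each timepoint, and normoxic D7 cells overlapped hypoxic D0 cells. The ratio of the mean TPM in hypoxia to that in normoxia was 3.20 at D0, 4.64 at D1 and 3.84 at D3, then 1.63 at D7 and 1.25 at D11. Ordered by level, the lowest groups were normoxia at D1, D0, D3 and D7, the middle was held by hypoxia at D0 and D1, and hypoxia at D3 and D7 and normoxia at D11 formed a level of 106 to 108 TPM within which neighbours in the order overlapped. Hypoxia at D11, at 135 ± 13.1 TPM, stood above all of them.

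Bhlhe40, the E-box repressor, was scarce in normoxia up to D7 and the most uneven of the 5 between libraries. Its normoxic libraries had 5.90 and 3.31 TPM at D0, 3.01 and 2.82 at D1, 2.78 and 3.50 at D3, 5.76 and 6.95 at D7, and 18.3 and 18.99 at D11. The hypoxic libraries had 18.0 and 12.9 TPM at D0, 16.4 and 18.4 at D1, 14.2 and 14.1 at D3, 21.6 and 32.9 at D7, and 29.6 and 25.9 at D11. Up to D7 the lowest hypoxic library, at 12.9 TPM, exceeded the highest normoxic one, at 6.95 TPM, and normoxic D11 cells then reached the level of hypoxic D1 cells, whose libraries they overlapped. The ratio of hypoxia to normoxia was 3.35, 5.98, 4.51 and 4.29 from D0 to D7 and 1.49 at D11, so that the response of Bhlhe40 at D7 was still as large as at D3 while that of Egln1 had shrunk. The 2 libraries of a group differed by up to 1.78 times, in normoxia at D0. Its group order had few gaps, and only the steps from normoxia at D7 to hypoxia at D3, and from normoxia at D11 to hypoxia at D7, separated neighbours without overlap.

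Ankrd37, the ankyrin repeat gene, was the scarcest of the 5 in normoxic preadipocytes. Normoxic libraries had 0.631 and 0.552 TPM at D0, 0.729 and 0.861 at D1, 2.601 and 2.92 at D3, 10.5 and 11.5 at D7, and 26.1 and 26.0 at D11. In hypoxia it had 9.35 and 9.04 TPM at D0, 5.38 and 5.84 at D1, 13.4 and 14.5 at D3, 26.1 and 30.7 at D7, and 34.6 and 33.5 at D11. The replicates of Ankrd37 lay close together, at most 1.18 times apart, and none of the 10 groups overlapped its neighbour in the order of levels. Mean TPM in hypoxia was 15.5, 7.07, 5.06, 2.58 and 1.31 times that in normoxia from D0 to D11, a ratio that narrowed at each timepoint. Fold changes on the log2(TPM + 1) scale understate the change of a gene as low as this one. Normoxic D11 cells held 2.83 times the level of hypoxic preadipocytes at D0.

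Ddit4, the brake on mTORC1, was the most abundant of the 5 in hypoxia at D0, D1, D3 and D11. Its normoxic libraries had 17.3 and 27.1 TPM at D0, 15.9 and 19.3 at D1, 35.2 and 44.1 at D3, 79.3 and 73.8 at D7, and 101 and 96.8 at D11. Hypoxic libraries had 107 and 134 TPM at D0, 99.9 and 101 at D1, 146 and 154 at D3, 114 and 131 at D7, and 161 and 157 at D11. Hypoxic levels were high from the first timepoint and varied less, from 100.4 to 159 TPM between group means, while the normoxic mean rose from 17.6 TPM at D1 to 99.1 TPM at D11. The ratio of hypoxia to normoxia was 5.42, 5.71, 3.78, 1.59 and 1.60 from D0 to D11. Unlike the other 4 genes, Ddit4 in normoxia at D11 did not pass its level in hypoxic preadipocytes at D0, of which it reached 0.824, and all 5 normoxic groups were lower in mean than all 5 hypoxic groups, with an overlap between normoxia at D11 and hypoxia at D1.

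Ccng2, the antiproliferative cyclin, had lower TPM in hypoxia at D11. There Egln1, Ankrd37 and Bhlhe40 had log2 fold changes of -0.25, -0.19 and -0.02 with library medians set equal, but 0.38, 0.09 and 0.19 with quantile normalization. The normoxic libraries of Ccng2 had 15.5 and 14.7 TPM at D0, 9.91 and 9.72 at D1, 19.7 and 22.2 at D3, 65.4 and 70.5 at D7, and 109 and 135 at D11. In hypoxia it had 63.8 and 54.4 TPM at D0, 56.8 and 71.9 at D1, 86.7 and 79.3 at D3, 132 and 146 at D7, and 101 and 106 at D11. Both hypoxic D11 libraries were below both normoxic ones, whereas at the 4 earlier timepoints both were above. The ratio of hypoxia to normoxia was 3.92, 6.56, 3.96 and 2.05 from D0 to D7 and 0.854 at D11. Its 2 highest groups, hypoxia at D7 and normoxia at D11, overlapped.

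**Figure D1:**
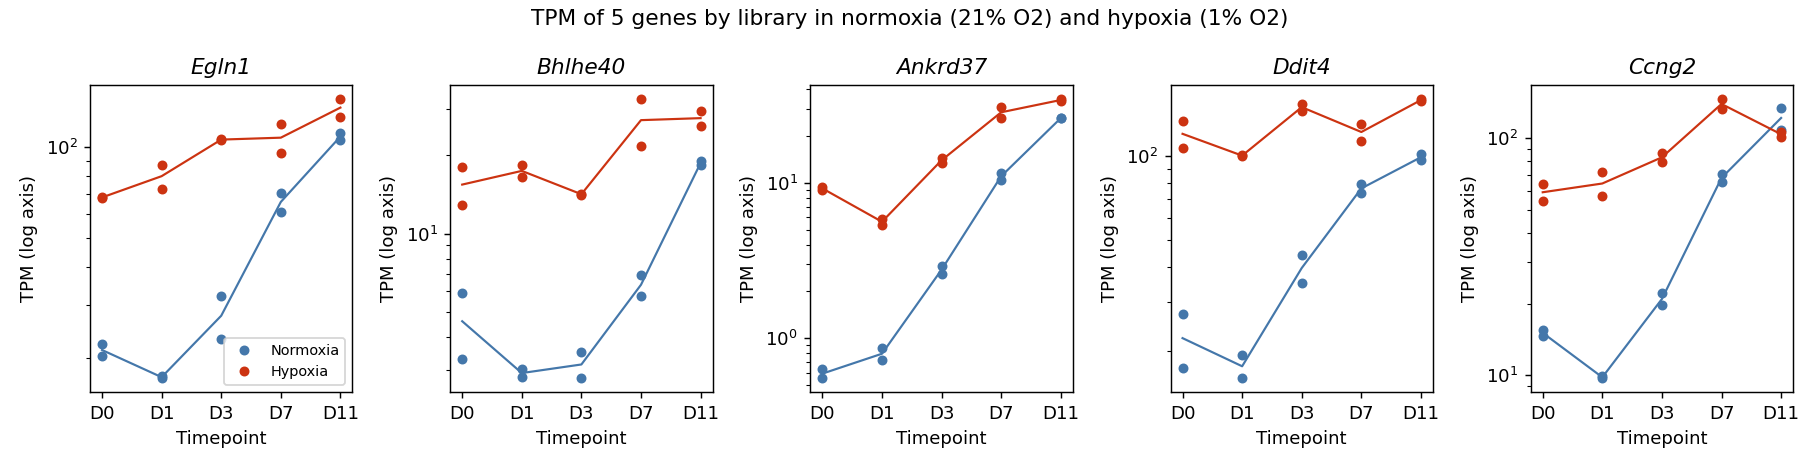
TPM (log axis, one panel per gene, each with its own range) of Egln1, Bhlhe40, Ankrd37, Ddit4 and Ccng2 at D0, D1, D3, D7 and D11 in normoxia (blue) and hypoxia (red). Each point is one library and lines join the means of 2 libraries; the red points lie above the blue ones at each timepoint except for Ccng2 at D11, where they run from 101 to 106 TPM against 109 to 135 TPM.

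The effect of oxygen on the 5 genes was large at the early timepoints, smaller at D7 and close to that of the median mRNA at D11. Since this contrast chose the genes, its values are a description without p-values. At D0 the log2 fold changes of hypoxia against normoxia were 2.68 ± 0.10 (standard error from limma, on log2(TPM + 1)) for Ankrd37, 2.41 ± 0.16 for Ddit4, 1.90 ± 0.13 for Ccng2, 1.64 ± 0.14 for Egln1 and 1.57 ± 0.20 for Bhlhe40. The order changed at D1, where Ccng2 led with 2.59, followed by Ddit4 at 2.45, Bhlhe40 at 2.23, Egln1 at 2.14 and Ankrd37 at 1.88. At D3 the 5 values lay between 1.88 and 1.99, closer together than one standard error of Bhlhe40, Ddit4, Egln1 or Ccng2. At D7 they spread again, with 1.92 for Bhlhe40, 1.29 for Ankrd37 and 1.02 for Ccng2, and with 0.69 for Egln1 and 0.66 for Ddit4 below 1. Their medians were 1.90, 2.23, 1.92, 1.02 and 0.37 from D0 to D11.

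At D11 the log2 fold changes were 0.68 for Ddit4, 0.55 for Bhlhe40, 0.37 for Ankrd37, 0.31 for Egln1 and -0.22 for Ccng2, with the same standard errors as at D0. The median of all mRNAs was 0.51 at that timepoint, so that the relative values were 0.16, 0.03, -0.14, -0.20 and -0.73. With library medians set equal, Egln1, Ankrd37 and Bhlhe40 changed sign (-0.25, -0.19 and -0.02), while with quantile normalization they stayed above 0, and the signs of Ddit4 and Ccng2 held under these scalings. Ranked from the highest log2 fold change among the 10318 mRNAs, the 5 genes stood between 7 and 34 at D0, between 9 and 31 at D1, between 11 and 23 at D3, between 7 and 257 at D7, and between 4117 and 8749 at D11.

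Called below means an adjusted p under 0.05 over all mRNAs together with a log2 fold change beyond 1. By that rule 5, 5, 5, 3 and 0 of the 5 genes were called higher in hypoxia at D0, D1, D3, D7 and D11, where 0.853%, 1.29%, 1.40%, 0.688% and 21.2% of all mRNAs were. None was called lower, as 0.0291%, 0.485%, 0.485%, 4.86% and 2.64% of all mRNAs were. Ccng2 at D7 lay just inside the fold threshold and Egln1 and Ddit4 outside it. Without normoxia D7 replicate 1 or hypoxia D7 replicate 2, Ccng2 had 0.97 or 0.95 there. In 24 of the 25 pairs of gene and timepoint both hypoxic libraries exceeded both normoxic ones, as in 22.3%, 20.2%, 25.1%, 19.5% and 68.2% of all mRNAs from D0 to D11. The remaining pair was Ccng2 at D11, where both hypoxic libraries were lower, as in 16.3% of all mRNAs. Nothing is read from these shares, because the rule used the contrast.

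**Figure D2:**
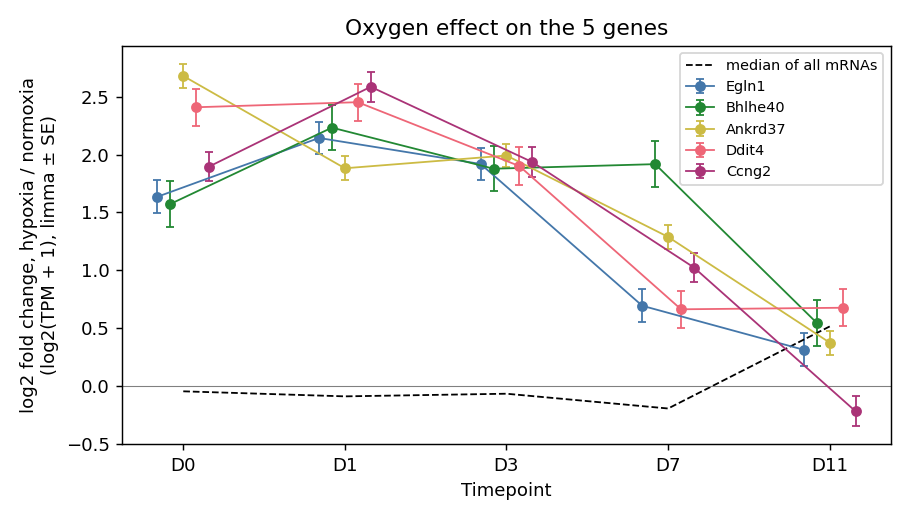
Log2 fold change of hypoxia against normoxia (log2(TPM + 1), points with limma standard errors) of the 5 genes at the 5 timepoints, with the median of all 10318 mRNAs as a dashed line. The 5 genes lie between 1.88 and 1.99 at D3 and between -0.22 and 0.68 at D11, where the dashed line is at 0.51.

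In normoxia, where the set oxygen level stayed the same, most of the 5 genes rose in each step of differentiation after D1. Whether oxygen at the cells themselves changed between timepoints was not tested. The comparison of normoxic timepoints was not used to choose the 5 genes but shares the normoxic libraries with the contrast that was. From D0 to D1, the first day of the cocktail, 0 of 5 rose (8.46% of all mRNAs passed the adjusted p as higher and 1.27% both thresholds). In that step Ccng2 fell (log2 fold change -0.57, adjusted p = 0.0015 from limma), as did 34.8% of all mRNAs by the adjusted p. The values of Bhlhe40, Ddit4, Egln1 and Ankrd37, -0.48, -0.29, -0.28 and 0.17, did not pass, and the median of all mRNAs was -0.19.

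From D1 to D3 in normoxia Ddit4 rose by 1.13 on the log2 scale (limma, standard error 0.16, adjusted p = 3.7e-05), Ankrd37 by 1.07 (adjusted p = 2.8e-07), Ccng2 by 1.02 (adjusted p = 8.0e-06) and Egln1 by 0.63 (adjusted p = 0.0029). Bhlhe40 had a value of 0.08. These 3 called rises compare with 1.79% of all mRNAs, and the 4 rises by the adjusted p with 10.8%. The calls of Ddit4 and Ccng2 were near the threshold: without normoxia D3 replicate 2 they had 0.97 and 0.94, and without normoxia D1 replicate 1 Ddit4 had 0.996.

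The step from D3 to D7 was the largest for Ankrd37, Ccng2, Egln1 and the first in which Bhlhe40 moved. Ankrd37 rose by 1.68 (adjusted p = 6.2e-10 from limma), Ccng2 by 1.65 (adjusted p = 1.2e-08) and Egln1 by 1.24 (adjusted p = 1.2e-06), each past both thresholds. Ddit4 rose by 0.94 (adjusted p = 1.1e-04) and Bhlhe40 by 0.83 (adjusted p = 0.0019). All 5 passed the adjusted p, as 12.7% of all mRNAs did, and 3 both thresholds, as 1.67% did. Without normoxia D3 replicate 2 Ddit4 had 1.10 and was called as well.

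Between D7 and D11 in normoxia Bhlhe40 rose most, by 1.42 (standard error 0.20, adjusted p = 5.1e-06 from limma), late in comparison with the others. Ankrd37 rose by 1.17 (adjusted p = 2.9e-08), Ccng2 by 0.82 (adjusted p = 2.1e-05) and Egln1 by 0.71 (adjusted p = 2.6e-04). Ddit4, with 0.37 (adjusted p = 0.056), did not pass. By the adjusted p 30.6% of all mRNAs rose in this step and 5.31% passed both thresholds, against 4 and 2 of the 5 genes. When TPM was rescaled to the listed mRNAs, Bhlhe40 and Ankrd37 had 0.92 and 0.63 here, and Ankrd37 had 0.98 with quantile normalization, which ended their calls. Over the 4 steps 8 of 20 values in normoxia were called rises, and between 7 and 8 were when any one library was left out.

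In hypoxia 1 of 20 steps was a called rise. Whether a step differed between oxygen levels was not tested, and these values share the hypoxic libraries with the contrast that chose the genes. Ankrd37 fell from D0 to D1 (log2 fold change -0.63, adjusted p = 6.4e-05 from limma), from 9.20 to 5.61 TPM, a step in which 43.2% of all mRNAs fell by the adjusted p, 7.96% rose by it and 1.27% rose past both thresholds. The other 4 genes had values between -0.25 and 0.23 that did not pass. From D1 to D3 Ankrd37 rose by 1.18 (adjusted p = 9.4e-08), the only called rise of the 5 in hypoxia. Ddit4 (0.57), Egln1 (0.40) and Ccng2 (0.37) passed the adjusted p alone, with 0.011, 0.036 and 0.034. Of all mRNAs 14.3% rose by the adjusted p in that step and 1.73% past both thresholds.

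From D3 to D7 in hypoxia Ankrd37 rose by 0.97, Bhlhe40 by 0.87 and Ccng2 by 0.74 (adjusted p = 2.9e-07, 8.7e-04 and 7.2e-05 from limma), whereas Egln1 and Ddit4 had 0.01 and -0.30 and did not pass. By the adjusted p 8.87% of all mRNAs rose, and 0.698% rose past both thresholds. The fold threshold was close: without hypoxia D7 replicate 1 Bhlhe40 had 1.16 and Ankrd37 1.08, and without hypoxia D3 replicate 2 Ankrd37 had 1.02. With library medians set equal Ankrd37, Bhlhe40 and Ccng2 had 1.32, 1.22 and 1.09 and were called. From D7 to D11 Ccng2 fell (-0.42, adjusted p = 0.0053), as 3.90% of all mRNAs did, and the same libraries gave Ddit4 0.38, Egln1 0.33 and Ankrd37 0.26, each with an adjusted p under 0.05, in a step where 79.8% of all mRNAs rose by the adjusted p, 28.5% past both thresholds, and their median was 0.72. Relative to that median all 5 genes were below 0 (-0.34 to -1.14), and after centring on the library median Ddit4, Egln1 and Ankrd37 had -0.42, -0.47 and -0.54, so that no direction is given for them.

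**Figure D3:**
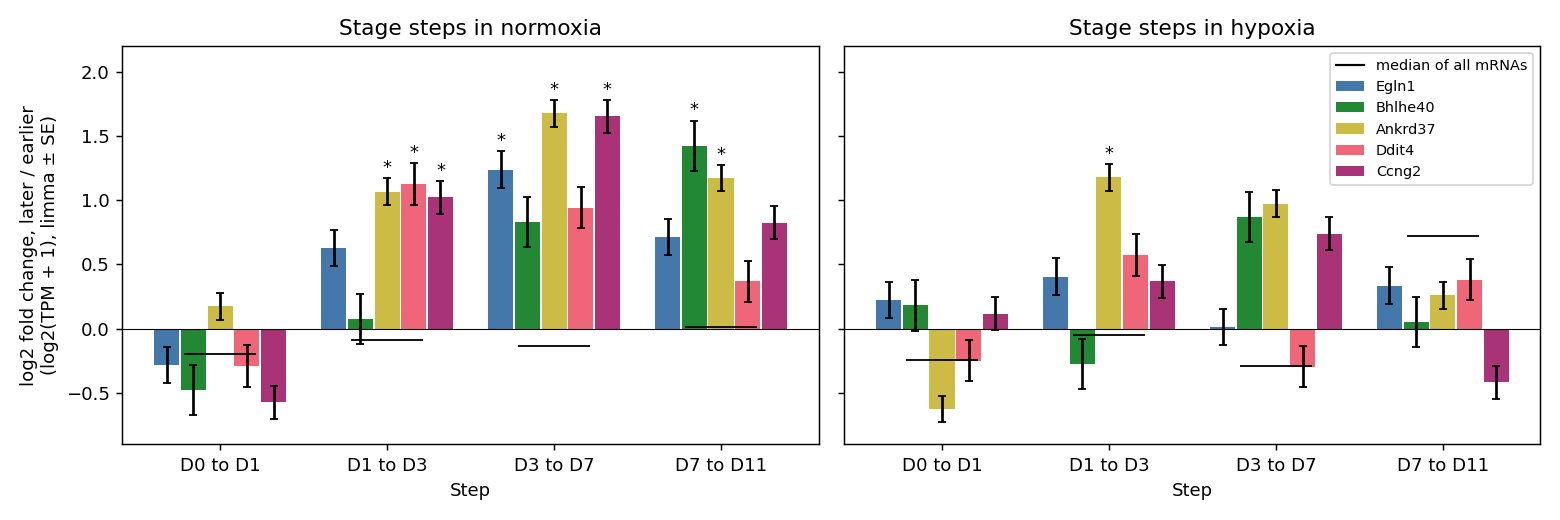
Log2 fold change of the 5 genes between successive timepoints (later against earlier, bars with limma standard errors) in normoxia (left) and hypoxia (right), with asterisks on values called as rises and short lines at the median of all mRNAs in each step. Of 20 steps 8 carry an asterisk in normoxia and 1 in hypoxia, and the line stands at 0.72 for D7 to D11 in hypoxia.

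Over the whole normoxic course, from D0 to D11, each of the 5 genes rose. On the log2 scale Ankrd37 rose by 4.09 (limma, standard error 0.10, adjusted p = 5.6e-16), Ccng2 by 2.92 (0.13, adjusted p = 5.0e-13), Egln1 by 2.30 (0.14, adjusted p = 4.0e-11), Ddit4 by 2.14 (0.16, adjusted p = 5.7e-10) and Bhlhe40 by 1.85 (0.20, adjusted p = 6.0e-08). In mean TPM the D11 level was 44.0, 8.05, 5.10, 4.46 and 4.05 times the D0 level in the same order. In hypoxia the ratios between the same timepoints were 3.71, 1.76, 1.98, 1.32 and 1.8. Normoxic cells at D11 held more of Ankrd37 (2.83 times), Ccng2 (2.06), Egln1 (1.59) and Bhlhe40 (1.21) than hypoxic preadipocytes at D0.

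All 5 were called as rises, as were 6.00% of all mRNAs (619 of 10318, with 2038 called lower), and they stood between rank 6 and rank 131 from the top. The split of all mRNAs depends on the scaling: 1352 were called higher and 771 lower after centring on the library median, 915 and 835 with quantile normalization, 477 and 3532 after rescaling to the listed mRNAs, and 795 and 2871 with a pseudocount of 0.1. The 5 genes were called under each of these settings and without any one library, with lowest values of 4.05 for Ankrd37, 2.71 for Ccng2, 2.07 for Egln1, 1.83 for Ddit4 and 1.51 for Bhlhe40. From D0 to D7, in the fit of all 20 libraries, 4 of 5 were called, as were 4.03% of all mRNAs. The same 4 of 5 were called in a fit without the D11 libraries that was added after the data had been seen. Bhlhe40, with 0.43, was not.

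Along the same course the summed level of the 7 named adipocyte markers of 13 was highest at D7 and D11, most of it from Fabp4 and Pparg. From D0 to D11 4 of the 7 were called as rises, as were 6.00% of all mRNAs. From D0 to D7 3 were called as rises and 1 as a fall, where 416 and 1530 of 10318 mRNAs were. The summed level lay between 166 and 169 TPM in normoxia at D0, 68.4 and 83.3 at D1, 209 and 220 at D3, 571 and 590 at D7, and 470 and 570 at D11. In hypoxia it was 184 to 185, 85.0 to 101, 166 to 207, 402 to 449 and 462 to 509 TPM at the same timepoints. At D11 these sums overlapped between oxygen levels, while 4 of the 7 were called higher in hypoxia, as were 21.2% of all mRNAs. The median log2 fold change of the 7 was 1.02 there, against 0.51 for all mRNAs. The 2 named preadipocyte and fibroblast markers of 11, Pdgfra and Zfp521, summed to between 7.42 and 7.76 TPM in normoxia at D0, 20.9 and 23.0 at D7 and 10.1 and 12.7 at D11. In hypoxia they summed to between 11.9 and 12.1 TPM at D0, 10.1 and 12.9 at D7 and 24.0 and 27.9 at D11. Pecam1 was at or below 9.03 TPM throughout and below 0.8 TPM in normoxia at D0 and D11. The part of these markers in the levels of the 5 genes was not tested.

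Other HIF targets climbed in the same normoxic course. Of 10 named members of a list of 17 genes for glycolytic enzymes or, as Slc2a1, glucose uptake, 7 were called as rises, and their median log2 fold change was 1.82, against 2.30 for the 5 genes and -0.38 for all mRNAs, of which 6.00% were called as rises. Pgk1, a glycolytic kinase gene, rose from 181 ± 20.1 to 2026 ± 227 TPM. The 3 mitochondrial targets rose more: Ndufa4l2, which tunes the respiratory chain, by 7.59, the mitophagy receptor gene Bnip3 by 5.17 and Fam162a by 3.69. The 5 genes lay within the range of these targets, between Hk2 at 0.39 and Ndufa4l2. All values use the same normoxic libraries, and names were known mainly for genes the authors had called, so the groups were not tested against each other.

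**Figure D4:**
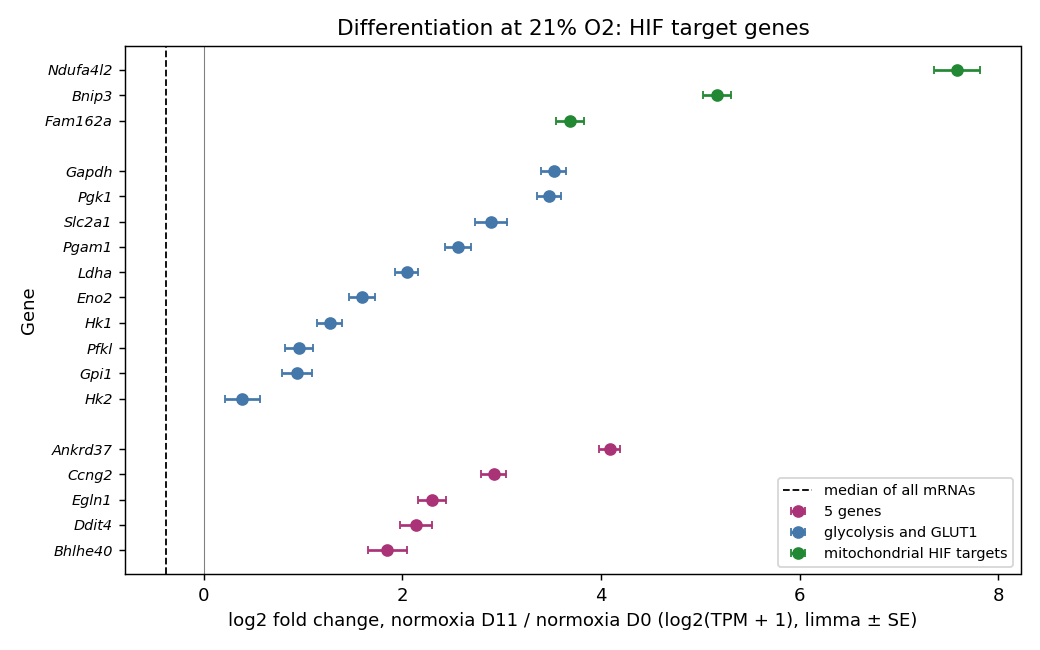
Log2 fold change from D0 to D11 in normoxia (log2(TPM + 1), points with limma standard errors) of the 5 genes, 10 named genes of glycolysis with Slc2a1, and 3 mitochondrial HIF targets, with the median of all mRNAs as a dashed line at -0.38. The 5 genes lie between 1.85 and 4.09 and the mitochondrial targets between 3.69 and 7.59.

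Around the 5 genes, 7 lists from the same pathways gave 50 other genes with a known symbol. Of these 1, 5, 5, 9 and 19 were called higher in hypoxia at D0, D1, D3, D7 and D11, and 0, 0, 0, 2 and 2 were called lower. These counts stand beside 0.853%, 1.29%, 1.40%, 0.688% and 21.2% of all mRNAs called higher from D0 to D11. Names lean towards genes that the authors had called for hypoxia against normoxia in these libraries, and they called most at D11. Calls of list genes are therefore a description, their p-values are not given, and nothing is read from their timing. Without normoxia D0 replicate 1 the count at D0 was 3, and without hypoxia D0 replicate 2 it was 2. At D11 it fell from 19 higher and 2 lower to 5 and 5 after centring on the library median.

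Of the other genes of oxygen sensing and HIF control, 6 of 19 had a symbol. At D3 1 and at D11 3 of these were called higher, as were 1.40% and 21.2% of all mRNAs. Cited2, which competes with HIF alpha for the coactivators CBP and p300, had 6.83 ± 0.405 TPM in normoxia and 15.4 ± 0.902 in hypoxia at D3, a called rise of 1.07. At D11 it had 20.0 ± 3.20 and 73.4 ± 9.10 TPM (1.83, relative value 1.31). Crebbp and Ep300, which encode those coactivators, were called higher at D11 as well, with 1.49 and 1.12 (relative values 0.98 and 0.60). Crebbp had 0.93 after centring on library medians and 0.80 with quantile normalization, which ended its call. Rbx1, the RING subunit of the ubiquitin ligase that takes HIF alpha, was called lower at D11, at 155 ± 1.61 TPM against 359 ± 30.7 TPM (-1.20). It had -1.76 after centring on library medians and -0.88, which ends the call, with quantile normalization. The median relative value of the 6 genes was between 0.02 and 0.11 from D0 to D7 and 0.31 at D11.

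The 4 named histone demethylases of 7, known as HIF targets in human cells, had median relative values of 0.76, 1.12, 0.93, 0.36 and 0.24 from D0 to D11. Kdm3a, which removes methyl groups from histone H3 lysine 9, was called higher at D0 (1.22), D1 (1.35) and D7 (1.13), and at D3 it had 0.90. At D11 it had 67.3 ± 12.9 TPM in normoxia and 70.2 ± 1.36 in hypoxia. Kdm5b and Kdm4b were called at D1, with 1.04 and 1.03, and without hypoxia D1 replicate 2 Kdm5b had 0.96. At D3, where they were not called, they had 0.91 and 0.83, and at D11 0.71 and 0.94.

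Among the 9 named clock and E-box regulators of 18, 0, 2, 3, 5 and 3 were called higher from D0 to D11. Of all mRNAs 0.853%, 1.29%, 1.40%, 0.688% and 21.2% were called higher. The median relative values of the 9 genes were 0.14, 0.25, 0.88, 1.23 and -0.09. Bhlhe41, the paralogue of Bhlhe40, rose under hypoxia at D3 from 7.21 ± 1.42 to 16.5 ± 2.56 TPM (1.10) and at D7 from 10.96 ± 0.340 to 34.6 ± 2.35 TPM (1.57). At D11 it was called at 1.11, with a relative value of 0.60. Centring on library medians gave 0.55 there and quantile normalization 0.64, which ended the call. Without normoxia D3 replicate 1 or hypoxia D3 replicate 1 the D3 value was 0.92 or 0.95, and without normoxia D11 replicate 1 the D11 value was 0.95. In normoxia Bhlhe41 had means of 8.25 TPM at D0, 2.33 at D1 and 10.3 at D11, where Bhlhe40 had 4.603, 2.91 and 18.7. Ciart, a clock repressor gene, had called rises of 1.89, 1.802 and 2.09 at D1, D3 and D7, and Dbp, a clock output gene, of 2.07 at D7. At D11 Ciart was lower in hypoxia, at 15.8 ± 0.789 TPM against 22.2 ± 2.52 TPM (-0.46, not called). Centring on library medians gave it -1.02 there and quantile normalization -0.84.

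Of the other genes that restrain mTORC1, 7 of 20 had a symbol. At D11 4 of the 7 were called higher, as were 21.2% of all mRNAs, and before D11 none was. Symbols lean towards genes that the authors had called, mostly at D11, so this timing is set in part by the naming. The median relative values of the 7 genes were 0.18 and 0.13 at D0 and D1, -0.08 at D7 and 0.51 at D11. Trib3, a pseudokinase gene that inhibits Akt upstream of mTORC1, had log2 fold changes of -0.39, -0.78, -0.74 and -0.10 from D0 to D7, none called. At D11 it had 7.51 ± 0.260 TPM in normoxia and 64.1 ± 0.165 in hypoxia (2.94, relative value 2.42). Tsc2, whose product acts downstream of REDD1, was called there at 1.32 (relative value 0.80), at 2.02 ± 0.0343 against 6.56 ± 0.856 TPM. Its call ended after centring on library medians (0.76) and with quantile normalization (0.58). Spaar, which encodes a small polypeptide that restrains mTORC1, turned over time, from 85.3 ± 12.8 TPM in normoxia to 15.6 ± 1.28 in hypoxia at D7 (-2.37) and from 12.01 ± 1.38 to 72.1 ± 5.95 TPM at D11 (2.49). Of 11 named genes of the complex itself, its activators and substrates, only Fnip2, which encodes a partner of folliculin, was called before D11 (1.29 at D7). At D11 4 of the 11 were called higher, beside the same 21.2% of all mRNAs. The median relative values of the 11 ran from -0.14 at D3 to 0.22 at D11. Mlst8, a subunit of the complex, and Eif4ebp2, one of its substrates, were called higher at D11, with 1.77 and 1.40 and relative values of 1.26 and 0.88. After centring on library medians and with quantile normalization Eif4ebp2 had 0.84 and 0.67, which ended its call, and Mlst8 had 1.21 and 1.04. At D7 Mlst8 was lower in hypoxia, at 1.70 ± 0.0560 TPM against 3.79 ± 0.0934 TPM (-0.83, not called).

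Of 8 named cell cycle brakes of 18, Ccng2 aside, 1 was called higher at D3, 2 at D7 and 4 at D11, where 1 was called lower. Of all mRNAs 1.40%, 0.688% and 21.2% were called higher at these timepoints, and 2.64% lower at D11. The 8 genes had median relative values between 0.22 and 0.55. Btg2, an antiproliferative gene, rose at D3 from 3.25 ± 0.170 to 8.98 ± 1.77 TPM (1.22) and at D11 from 4.93 ± 0.226 to 30.7 ± 2.97 TPM (2.41). Cdkn2b, which encodes an inhibitor of the cyclin D kinases, rose at D7 from 17.4 ± 0.934 to 58.2 ± 16.5 TPM (1.66) and was called at D11 at 1.17, with a relative value of 0.66. At D11 centring on library medians gave it 0.61 and quantile normalization 0.97, which ended that call. Gadd45b, a stress gene, followed the order of Ccng2, higher at D7 (6.15 ± 1.44 and 30.3 ± 10.98 TPM) and lower at D11 (26.9 ± 0.658 and 11.4 ± 0.927 TPM). Ccnd1, cyclin D1, which drives entry into the cell cycle, went the other way, with -1.30 at D7 and 1.27 at D11, where centring on library medians gave 0.71 and quantile normalization 0.61 and ended the call. The other 4 named genes among G1 cyclins and kinases were not called at any timepoint, and the list had median relative values from -0.54 at D1 to 0.02 at D11.

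**Figure D5:**
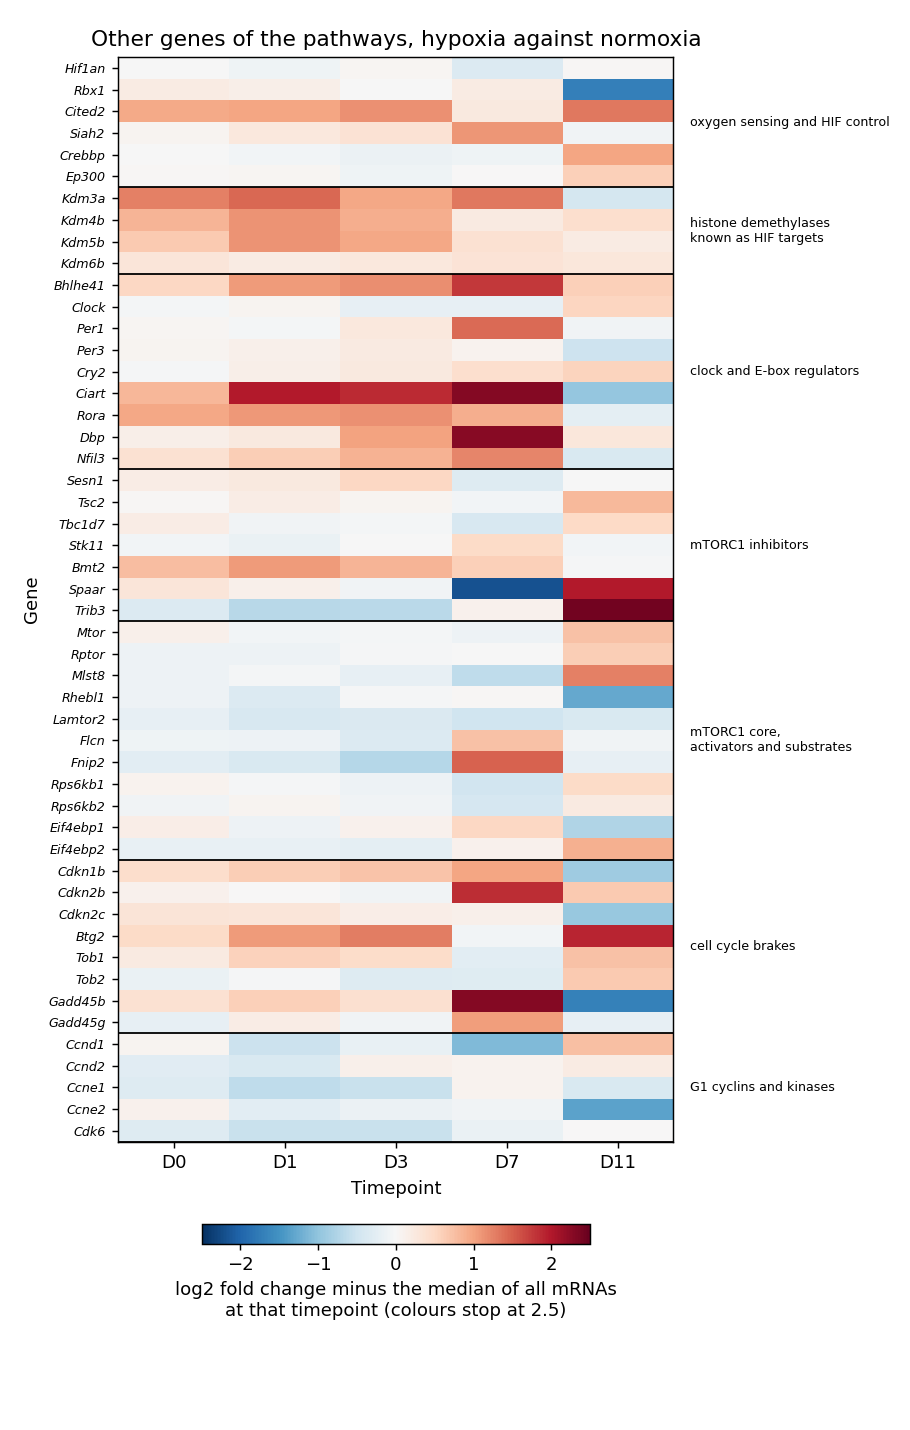
Relative log2 fold change of hypoxia against normoxia (fold change minus the median of all mRNAs at that timepoint, colour scale from -2.5 to 2.5) of the 50 other named genes in 7 pathway lists at the 5 timepoints. Ciart has relative values of 1.98, 1.87 and 2.29 from D1 to D7, and Spaar and Gadd45b change colour between D7 and D11.

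The 5 genes ran closely together over the 20 libraries, whose contrast of hypoxia and normoxia also chose them, so that likeness among them was fixed in part by the choice. Pearson's r of log2(TPM + 1) between pairs of them ran from 0.861 (Bhlhe40 with Ankrd37) to 0.976 (Egln1 with Ccng2). Among 2013 mRNAs with a symbol and a group mean of at least 10 TPM, those most like Egln1 were Mpi (0.982), Bnip3l (0.978) and Insig2 (0.978), and those most like Ccng2 were Insig2 (0.988), Gbe1 (0.984) and Pgk1 (0.978). Ddit4 came closest to Pygl (0.969), Egln1 (0.963) and Hk1 (0.957), Ankrd37 to Mif (0.976), Rora (0.973) and Txnip (0.966), and Bhlhe40, with the lowest values, to Slc2a1 (0.943), Nxn (0.941) and Ipmk (0.939). With Spearman's rho, 1, 1, 1, 0 and 0 of these 3 stayed among the first 3 for Egln1, Bhlhe40, Ccng2, Ankrd37 and Ddit4. The libraries share groups, so r describes this set and has no p-value.

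Long noncoding RNAs (lncRNAs) within 100 kb were listed by the authors for Ddit4 and Ankrd37 only, among lncRNAs they had called in these libraries. TU3306, on the strand of Ankrd37, had 1.47 and 1.51 TPM in normoxia and 2.45 and 2.42 in hypoxia at D0, and 0.761 and 1.15 against 5.00 and 4.06 at D11. Its log2 fold changes on log2(TPM + 0.1) were 0.67, 0.55, 0.71, -0.71 and 2.15 from D0 to D11. All 4295 listed lncRNAs had medians of 0.15, 0.10, 0.03, -0.61 and 1.01 on that scale, so that the values of TU3306 relative to them were 0.53, 0.45, 0.68, -0.10 and 1.14. Near Ddit4, TU1848 on the same strand had 1.07, 0.64, 0.32, -1.05 and 0.55, which relative to all lncRNAs was -0.44 at D7 and -0.46 at D11. TU1846 and TU1852 on the opposite strand had 1.85 and 0.05 at D11, with relative values of 0.85 and -0.96, and -0.15 and -0.46 at D7, where their relative values were above 0 (0.46 and 0.15). These lncRNAs were at most 5.00 TPM and get no test, because the table selected them on the same libraries.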

How the data were processed

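RNA depleted of ribosomal RNA was sequenced by the authors as 20 strand-specific libraries. Per the labels and the study's methods, reads were processed with CASAVA 1.8.2 and aligned with STAR 2.6.0c to CriGri-PICR, and lncRNAs were assembled. The deposited TPM values were computed by the authors with kallisto 0.44.0, and the tables list mRNAs over 1 TPM (lncRNAs over 0.1 TPM) in both replicates of a group. No gene counts were used, and columns of the authors' own comparisons were not used.

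Rows were matched to symbols through the study's supplementary tables, which named 3851 of 10318 mRNAs. Log2(TPM + 1), or log2(TPM + 0.1) for lncRNAs, was fitted with limma 3.58.1 (R 4.3.3; lmFit and eBayes with trend) in 1 model of 20 libraries with 10 group means and 10 residual degrees of freedom. P-values were adjusted by Benjamini-Hochberg over all mRNAs within each contrast. Called means an adjusted p under 0.05 and an absolute log2 fold change over 1. The study calls the replicates biological without stating separate cultures, and p-values cover no more than the spread between the 2 libraries of a group. The fit was tested on simulated data.

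The 5 genes and all lists were chosen with earlier results of these data known. Named were the 5 genes, up to 3 members per list with the largest called change, members called in both directions, markers with the highest mean TPM, and the 3 genes most like each of the 5. Genes named outside this rule (Ep300, Hk2) were chosen after their values were seen. Alternatives were a pseudocount of 0.1, a group mean of at least 5 TPM, centring on the library median, quantile normalization, rescaling to the listed mRNAs, a replicate block, a fit of the compared groups only, each library left out, a pseudocount of 1 for lncRNAs, and Spearman's rho. Fits without the D11 libraries were added after the data had been seen. Tables were handled with Python 3.11.15, numpy 2.4.6 and pandas 2.3.3 and drawn with matplotlib 3.10.9. Promoter and protein sequences were not analysed here.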

Additional observations from a re-analysis of the deposited data

Results flagged for a closer look

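Ccng2 was lower in hypoxia at D11 (log2 fold change -0.22), in both libraries against both normoxic ones, and higher in all hypoxic libraries at D0, D1, D3 and D7. The D11 difference was small beside the spread, with 101 and 106 against 109 and 135 TPM and a standard error of 0.13. It ran from -0.37 to -0.07 when single libraries were left out. Spaar was called lower in hypoxia at D7 (-2.37) and higher at D11 (2.49). Ccnd1 was called lower at D7 (-1.30) and higher at D11 (1.27), where its call ended with library medians set equal (0.71) and with quantile normalization (0.61). Gadd45b turned the other way, with 2.099 at D7 and -1.17 at D11. The difference between timepoints was not tested for any of these 4 genes.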

How the results depend on the processing

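The depth behind each TPM is unknown, 2 libraries a group limit every comparison, and values near the fold threshold or at D11 depend on the scaling. The cause was not tested for any of these shifts. Of 1385 alternative values for the stage steps and courses of the 5 genes, 19 gained a call and 6 lost it. Another 8 reversed from a value that had been called or had an adjusted p under 0.05. The remaining 1352 were counted as unchanged, which includes changes of sign in values that had not passed the adjusted p. Ddit4 from D0 to D1 in normoxia, for example, ran from -0.60 to 0.015 when single libraries were left out.

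With a pseudocount of 0.1, centring on the library median, quantile normalization and rescaling to the listed mRNAs, the called rises in hypoxia were 2, 4, 3 and 2 in place of 1, and the same numbers hold for the steps up to D7. Centring and rescaling gave 1 called fall in hypoxia, between D7 and D11, in place of 0. The median oxygen effect of the 5 genes at D1 was 2.54, 2.36 and 2.58 with a pseudocount of 0.1, quantile normalization and rescaling, in place of 2.23. Centring gave 1.28 at D7 in place of 1.02, and at D11 centring gave -0.19 and quantile normalization 0.19 in place of 0.37. Of the 5 genes, Egln1 (-0.25), Bhlhe40 (-0.016) and Ankrd37 (-0.19) reversed at D11 under centring. From D7 to D11 in hypoxia, centring and rescaling gave Egln1 -0.47 and -0.33, Ankrd37 -0.54 and -0.39, and Ddit4 -0.42 and -0.28, and quantile normalization gave Egln1 -0.0015 and Ankrd37 -0.31. Tsc2 at D7 was 0.081 with quantile normalization, in place of -0.27. Other named genes whose oxygen effect changed sign under some scaling, from values not called, were Kdm3a, Fnip2, Fam162a and Ndufa4l2 at D11, Crebbp, Eif4ebp2, Trib3 and Ndufa4l2 at D7, Rbx1 at D3, Cdkn2b at D1 and Tsc2 at D0 and D3.

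Of the 50 pathway genes, those called higher at D0 numbered 3 with a pseudocount of 0.1 and 2 after rescaling, in place of 1, and at D1 they numbered 9, 9, 8 and 9 with the pseudocount, centring, quantile normalization and rescaling, in place of 5. The pseudocount gave 1 called lower at D1 and 1 at D3 in place of 0, and 4 at D7 in place of 2, as did rescaling. At D11 centring gave 5 higher and 5 lower, and quantile normalization 5 and 4, in place of 19 and 2.

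Leaving out each library in turn, the medians ranged from 1.78 to 2.01 at D0, 2.16 to 2.31 at D1, 1.75 to 2.05 at D3, 0.95 to 1.10 at D7 and 0.35 to 0.41 at D11. Called rises ranged from 7 to 8 in normoxia and from 1 to 3 in hypoxia, with 2 without hypoxia D3 replicate 2 and 3 without hypoxia D7 replicate 1. The pathway genes called higher ranged from 1 to 3 at D0, 4 to 7 at D1, 4 to 6 at D3, 8 to 10 at D7 and 16 to 20 at D11. Deviations of samples with the same replicate number had correlations between conditions of 0.15, -0.12, 0.082, 0.013 and 0.28 from D0 to D11. With 2 libraries a group these cannot settle whether such samples shared a culture. With the replicate block the called rises stayed at 8 in normoxia, 1 in hypoxia and 5 over the normoxic course, and no count of called pathway genes changed. In a fit without the D11 libraries 6 of 15 normoxic and 1 of 15 hypoxic steps up to D7 were called.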
